A study of Mus musculus with 12 samples.

Results

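The proteases that cut the extracellular matrix and cell-surface proteins, and the inhibitors that hold them back, were followed here through 12 RNA libraries of mouse fibroblasts driven to become muscle. The 55 genes are the matrix metalloproteinases (MMPs), the ADAM and ADAMTS proteases with their ADAMTS-like relatives (ADAMTSL), and the tissue inhibitors of metalloproteinases (TIMPs). They were chosen by symbol (Mmp, Adam, Adamts, Adamtsl or Timp followed by a number) and by a mean value of at least 10 over the 8 mixed-culture libraries. Of 84 rows with such a symbol 55 met the minimum and 29 did not, out of 36229 identifiers in all, of which 17199 have a mean of at least 10. The 55 are 13 MMPs, 16 ADAMs, 17 ADAMTS genes, 5 ADAMTSL genes and 4 TIMPs.

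Fibroblasts from C57BL/6 mouse embryos were infected for 24 h with an adenovirus that expresses MyoD, a master regulator of muscle genes. The differentiation medium held 10 µg/ml insulin and 2% horse serum, and a fresh change of it was left on for 72 h. All groups therefore carry MyoD, and none is an untreated fibroblast. The genotypes are wild type (WT), Kdm5a-/- (Kdm5a knockout; KDM5A is a histone H3 lysine demethylase that binds the retinoblastoma protein), Rb1-/- (Rb1 knockout; its product restrains E2F transcription factors) and both together (DKO). Each genotype has n = 2 libraries of the whole mixed culture, for which ribosomal RNA was removed from 1.7 µg of input and reads were 40 bases long. For the WT and DKO genotypes there are also n = 2 libraries of purified myotubes, which were trypsinised, separated by size and given 24 h to recover in medium that other fibroblasts had conditioned for 48 h. These began with oligo(dT) selection on 1.5 µg, went through 15 cycles of PCR and gave 36-base reads. Whether replicate libraries represent different embryos or culture dishes is not stated, so p-values measure the spread between these libraries only. In whole cultures, fewer cells of a type and less RNA per cell cannot be told apart.

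MMPs are zinc proteases made as inactive precursors. Some are secreted, such as the gelatinase MMP2, and some sit in the membrane, such as MMP14, which cleaves collagen and activates MMP2. ADAMs are membrane proteases that shed growth factors, Notch and other surface proteins, ADAMTS proteases are secreted and cut proteoglycans, procollagens and microfibril proteins, and the ADAMTSL proteins have the ancillary domains without the protease. TIMPs block MMPs and, in the case of TIMP3, also several ADAM and ADAMTS proteases. In muscle, ADAM12 and ADAM19 (the meltrins) are known from fusing myoblasts, and ADAMTS proteases are known to clear versican around them.

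Values are reads normalised by library, and a difference is on the scale of log2(value + 1) with its standard error from limma. The words rose and fell are kept for genes with a p, adjusted over all genes tested, under 0.05. Depth was 8688604 to 41309134 reads per library, of which 18601 to 88163 per library fell on the 55 genes. Rb1 was 5616 and 5650 in WT, 4457 and 4448 in the libraries labelled Rb1 knockout and 5309 and 5662 in those labelled DKO, and Kdm5a was 1637 and 1871 in WT against 1088 and 1192 in Kdm5a knockout and 1319 and 1370 in DKO. Against WT, Rb1 passed as lower in the mixed Rb1 knockout libraries (adjusted p = 5.31e-05) but not in the mixed DKO libraries (adjusted p = 0.51), and the labels do not give the deleted exons, so a value over the whole gene does not check them. In purified libraries Rb1 was 3500 and 3218 in WT against 2356 and 2104 in DKO (adjusted p = 0.058), and Kdm5a was 3033 and 2775 against 787 and 614 and fell (adjusted p = 0.00287). The DKO difference of both genes was lower in purified than in mixed libraries (adjusted p = 0.0162 for Rb1 and 0.000309 for Kdm5a). Groups keep the names of their labels. Xist was read in the Kdm5a knockout and DKO libraries and Ddx3y in the WT and Rb1 knockout libraries, so sex and Kdm5a genotype cannot be told apart. The 2 DKO purified libraries differed from each other by a median of 0.479 (log2), against 0.088 to 0.149 between the libraries of every other group.

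Levels of cell type markers moved with genotype. The sum of 10 myotube markers was 368806 to 402588 in WT, 63568 to 65096 in Rb1 knockout and 161260 to 175317 in DKO, and all 10 fell in Rb1 knockout against WT. The sum of 10 fibroblast markers was 10469 to 10984 in WT, 77243 to 94064 in Rb1 knockout and 14119 to 14929 in DKO, and all 10 rose in Rb1 knockout against WT. Proliferation markers summed to 529 to 542 in WT, 15451 to 17400 in Rb1 knockout and 33068 to 33288 in DKO. Smooth muscle markers summed to 39657 to 40091 in WT, 42535 to 43209 in Rb1 knockout and 18476 to 18778 in DKO. Of these 5 markers 4 rose and 1 fell in Rb1 knockout against WT, and 3 rose and 2 fell in DKO against WT, so the sum and the count of markers differ in direction for DKO. Leukocyte markers summed to 753 to 846 in WT, 296 to 362 in Rb1 knockout and 322 to 336 in DKO, while of 6 tested 4 rose and 1 fell in Rb1 knockout and 3 rose and 2 fell in DKO. Endothelial markers summed to 317 to 388 in WT, 213 to 231 in Rb1 knockout and 678 to 692 in DKO. Of these 5 markers 2 rose and 2 fell in Rb1 knockout against WT. In DKO 4 rose against WT, 4 against Rb1 knockout and 5 against Kdm5a knockout, and none fell. Of 5 epithelial markers Krt14 had no read in any mixed library, and their sum did not exceed 73.0 there. The part of these shifts in the results below was not tested.

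Per kilobase of exon, the scale on which levels of different genes can be compared, the WT mixed culture was led by an inhibitor. Timp2 stood at 1187 per kb, followed by Adam9 at 896, the aggrecan and versican protease Adamts5 at 783, the sheddase Adam10 at 608 and Adam19 at 457. In Rb1 knockout the order changed to Timp1 (2290 per kb), Timp2 (1822) and Mmp2 (1315). In DKO mixed cultures Timp2 (1019) and Adam10 (1001) led, followed by Mmp2 at 735. In WT purified myotubes Adam19 was first at 2189 per kb, with Adamts5 second at 1274 and then Timp2 at 967. Library preparation and purification changed together, so a shift of levels between mixed and purified libraries cannot be told apart from the preparation. With that limit, mean values in WT purified libraries were 8.21 times those of WT mixed libraries for the procollagen protease Adamts14, 6.75 times for the membrane-type Mmp15, 4.79 times for Adam19 and 4.01 times for Mmp14. The reverse ratio, mixed over purified, was 10.9 for Adamts6 and 5.61 for Adam12.

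Promoter sequence was at hand for 36 of the 55 genes, from RefSeq on GRCm38.p6, as windows of 250 bases before to 50 after the start. On both strands, the E-box CAGNTG, the motif of MyoD and its relatives, was in the windows of 21 of the 36 (58.3%, against 54.6% of 27025 genes in the table). The AP-1 motif TGANTCA was in 3 (8.3% against 9.0%), and the E2F motif TTNGCGC in 6 (16.7% against 7.2%). These are matches of letters and no more. The upstream parts of 5 genes are shown with 1 motif each in capitals: Adam19 and Mmp15, whose values were higher in WT purified than in WT mixed libraries, Adamts2 and Timp3, which rose with Rb1 loss, and the collagenase Mmp13, which passed in no 2-group comparison of the mixed cultures. The first 4 have the E-box in capitals and Mmp13 has AP-1; each runs 5′ to 3′ up to the base before the start.
Adam19, plus strand, chr11:46055834-46055983: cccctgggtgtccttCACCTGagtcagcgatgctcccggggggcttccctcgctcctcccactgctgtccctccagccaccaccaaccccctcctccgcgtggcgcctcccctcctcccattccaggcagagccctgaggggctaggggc
Mmp15, plus strand, chr8:95352126-95352295: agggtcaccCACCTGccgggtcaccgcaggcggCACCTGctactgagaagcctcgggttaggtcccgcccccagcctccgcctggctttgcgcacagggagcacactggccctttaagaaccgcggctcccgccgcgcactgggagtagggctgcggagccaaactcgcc
Adamts2, plus strand, chr11:50601935-50602084: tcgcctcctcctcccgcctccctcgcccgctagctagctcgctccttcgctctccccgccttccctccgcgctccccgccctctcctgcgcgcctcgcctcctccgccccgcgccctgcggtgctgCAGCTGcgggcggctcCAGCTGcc
Timp3, plus strand, chr10:86300262-86300411: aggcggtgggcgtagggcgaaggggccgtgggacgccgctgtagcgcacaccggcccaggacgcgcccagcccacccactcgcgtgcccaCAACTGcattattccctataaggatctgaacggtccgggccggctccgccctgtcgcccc
Mmp13, plus strand, chr9:7272414-7272513: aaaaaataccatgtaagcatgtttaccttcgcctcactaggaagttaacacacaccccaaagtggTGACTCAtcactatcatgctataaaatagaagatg
In the Adam19 stretch, which is 1 of 3 windows listed for the gene, the E-box starts at −135 and an AP-1 match that overlaps it starts at −131. Mmp15 has E-boxes at −161 and −137 and an E2F match at −84, and Adamts2 has E-boxes at −24 and −8. The capitals of Timp3 start at −60, and those of Mmp13 at −35.

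Loss of Rb1 went with higher Timp1, Timp2 and Timp3, the gelatinase Mmp2 and a wide group of ADAM and ADAMTS genes in mixed cultures, and with a smaller group that fell and included Adam9, Mmp15 and Mmp19. Of the 55 genes 27 rose, 14 fell and 14 did not pass in Rb1 knockout against WT. Among all 17199 genes tested 71.1% were called, 36.8% as higher and 34.3% as lower. The median difference was 0.67 over the 55 genes and 0.03 over all genes. By family, 5 of 13 MMPs rose and 5 fell, 8 of 16 ADAMs rose and 3 fell, 9 of 17 ADAMTS genes rose and 4 fell, and 3 of 4 TIMPs rose. A gene that reached the minimum mean through a high level in 1 group had to differ between groups, so these counts describe the list and support nothing by themselves.

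Timp1, the secreted inhibitor encoded on the X chromosome, stood at 165 and 248 in WT and at 2179 and 1888 in Rb1 knockout. The Rb1 knockout libraries were the highest of the 12, and the groups did not overlap. The mean was 9.84-fold higher (3.32 ± 0.15, adjusted p = 7.91e-10). Timp3, which stays bound to the matrix, went from 444 and 535 to 5286 and 5689, 11.2-fold higher (3.49 ± 0.09, adjusted p = 3.39e-12). It shares 21.3% of its exonic length with Syn3 on the opposite strand, and the strandedness of the counting is not given, so its values are uncertain to that extent. Timp2, already the leading gene per kilobase, went from 4639 and 4610 to 6996 and 7205 (0.62 ± 0.05, adjusted p = 1.18e-07). Timp4 remained low, at 5.98 and 7.46 in WT and 4.05 and 6.34 in Rb1 knockout, and did not pass.

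Mmp2, which degrades denatured collagen and basement-membrane collagen, stood at 559 and 693 in WT and 4112 and 4754 in Rb1 knockout, a 7.08-fold difference (2.83 ± 0.11, adjusted p = 2.12e-10). Its membrane-bound activator Mmp14 went from 1208 and 1291 to 3450 and 3797 (1.53 ± 0.08, adjusted p = 4.26e-09). Both Rb1 knockout libraries lay above every other mixed library for both genes. Of the other membrane-type genes Mmp16 rose 4.53-fold and Mmp17, which is anchored by a lipid, rose 27.5-fold from values of 15.6 and 9.59 to 323 and 369 (4.71 ± 0.31, adjusted p = 2.27e-08). Mmp15 and Mmp24 went the other way, with log2 differences of -0.83 and -1.23, the latter from 348 and 296 to 146 and 128. Mmp24 shares 13.6% of its exonic length with BC029722, and Mmp19, which fell from 823 and 857 to 406 and 439, shares 22.3% with Tmem198b. Mmp23 rose 10.0-fold, from 13.2 and 14.9 to 124 and 157. The stromelysin Mmp11 (309 and 374 against 361 and 400) and the collagenase Mmp13 (15.6 and 3.20 against 18.9 and 9.96) did not pass.

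Adam11, Adam22 and Adam23, which lack protease activity and act as adhesion proteins and receptors in nerve tissue, all rose in Rb1 knockout. Adam22 went from 10.8 and 5.33 to 211 and 209 (26.1-fold), Adam23 from 40.7 and 52.2 to 500 and 585 (11.7-fold) and Adam11 from 13.2 and 6.40 to 43.2 and 40.7 (4.29-fold). Among the protease ADAMs, Adam12 rose from 1330 and 1268 to 2923 and 3011 (1.19 ± 0.07, adjusted p = 4.91e-09), and Adam10, the main sheddase of Notch, from 3003 and 2970 to 4796 and 4693 (0.67 ± 0.05, adjusted p = 1.16e-07). Adam17, which sheds tumour necrosis factor and ligands of the epidermal growth factor receptor, stood at 1822 and 1582 in WT and 2048 and 1998 in Rb1 knockout. It passed (0.25, adjusted p = 0.00963) but not without WT replicate 2 (0.15, adjusted p = 0.103) or Rb1 knockout replicate 1 (0.24, adjusted p = 0.052). Adam19 stood at 2885 and 3617 against 2845 and 2830, and did not pass (adjusted p = 0.0733). Adam9 fell from 3649 and 3721 to 2644 and 2557 (-0.50 ± 0.06, adjusted p = 5.48e-06). The testis-type Adam6a, which has a near-identical copy, fell from 120 and 97.0 to 36.5 and 34.4.

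Among secreted ADAMTS proteases the largest ratio was that of Adamts10, a partner of fibrillin microfibrils, with 11.96 and 15.99 in WT against 558 and 707 in Rb1 knockout (45.2-fold; 5.41 ± 0.27, adjusted p = 1.72e-09). Its close relative Adamts6 went from 355 and 355 to 2367 and 2621 (7.02-fold; 2.81 ± 0.09, adjusted p = 2.94e-11). Both libraries of Rb1 knockout were the highest of the 12 for these 2 genes. The procollagen protease Adamts2 went from 280 and 323 to 1292 and 1296 (2.10 ± 0.12), while its relative Adamts14 fell from 132 and 120 to 51.3 and 57.0 (-1.20 ± 0.22). Adamts12, which cuts cartilage oligomeric matrix protein, went from 623 and 658 to 1807 and 2014 (1.57 ± 0.09, adjusted p = 7.87e-09). The proteoglycanases were split: Adamts4 (0.84 ± 0.11) and Adamts9 (1.76 ± 0.16) rose. Adamts5, at 8044 and 8845 in WT, was 7676 and 7413 in Rb1 knockout, and its fall (-0.16, adjusted p = 0.0183) did not pass without WT replicate 2 (-0.09, adjusted p = 0.185) or Rb1 knockout replicate 2 (-0.14, adjusted p = 0.0964). Adamts1 stood at 2073 and 2102 against 1745 and 1772, a fall (-0.25, adjusted p = 0.0118) that did not pass without Rb1 knockout replicate 1 (-0.24, adjusted p = 0.0536). Of the ADAMTS-like genes Adamtsl3 and Adamtsl4 rose, with ratios of 4.96 and 3.18, and Adamtsl2 fell to 0.535 of the WT mean.

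**Figure D1:**
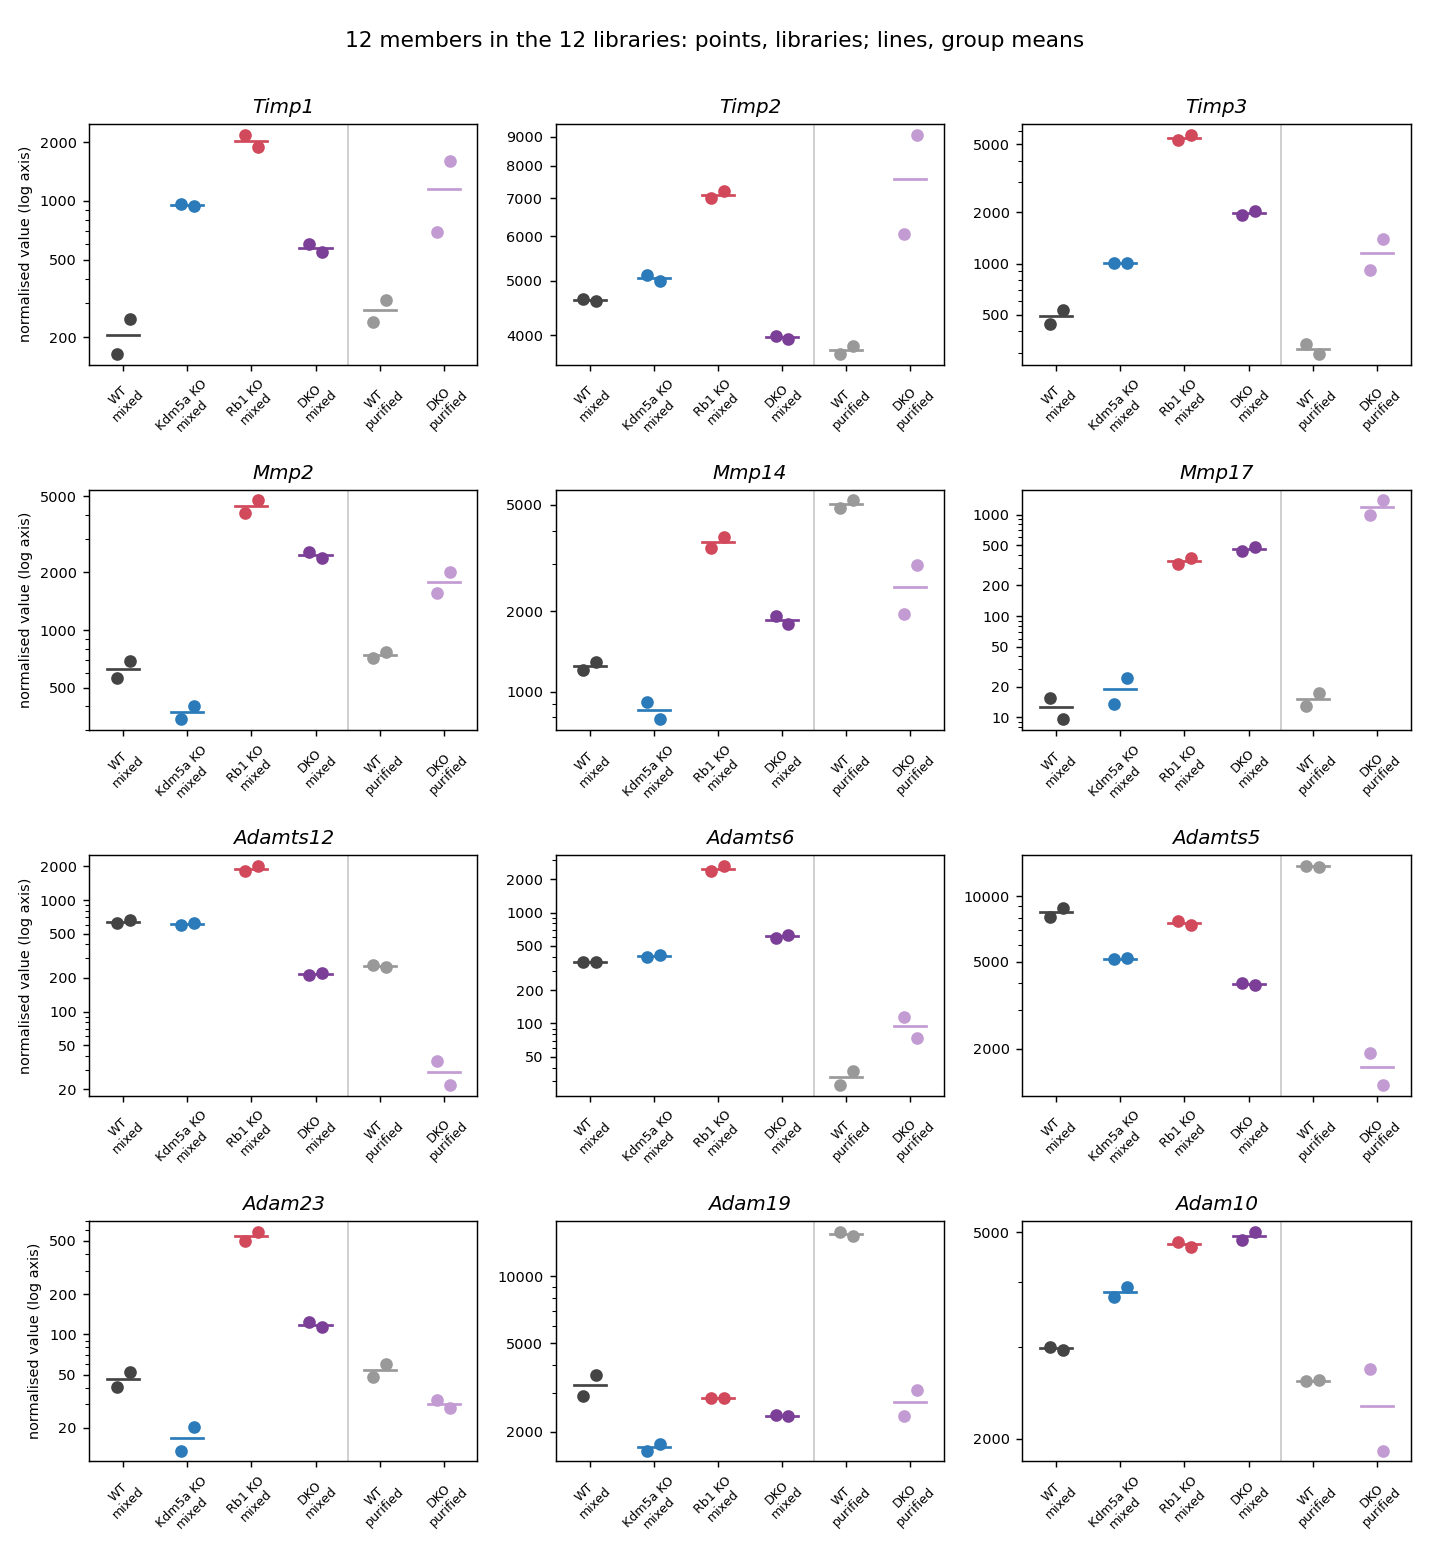
Normalised values (log axis, reads normalised by library) of 12 of the 55 genes in all 12 libraries; each point is a library and each line the mean of the 2 libraries of a group, with mixed cultures left of the grey line and purified myotubes right of it. Timp1, Timp3, Mmp2, Adamts6 and Adam23 are highest in the 2 Rb1 knockout libraries, Adamts5 and Adam19 in the 2 WT purified libraries, and Mmp17 in the 2 DKO purified libraries.

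Genes known to act with these proteases were read from 6 lists in the same comparison, where 36.8% of all genes tested rose and 34.3% fell. The lists were chosen with earlier results of these data known, so their counts are only a description. Of 9 tested substrates and partners of the ADAMTS family all 9 rose in Rb1 knockout against WT, with a median of 3.06. The versican gene Vcan went from 363 and 448 to 7926 and 8080 (4.31 ± 0.10), and the thrombospondin gene Thbs1 from 1202 and 1486 to 13982 and 15561 (3.46 ± 0.10). Of 11 activators and membrane regulators 6 rose and 2 fell (median 1.37). They included the plasminogen activator Plau (2.49 ± 0.11), the protease inhibitor Serpine2 (3.45 ± 0.06) and the proprotein convertase Pcsk6 (4.08 ± 0.12). Of 8 epidermal growth factor ligands and receptors 5 rose and 2 fell (median 2.02). The receptor Egfr (2.66 ± 0.09) and the ligand Nrg1 (4.10 ± 0.14) rose while Erbb3 (-1.68 ± 0.10) and Erbb2 (-1.70 ± 0.15) fell. Of 7 ADAM partners 3 rose and 3 fell (median -0.10). Tspan15 (2.42 ± 0.18), Tspan5 (0.74 ± 0.09) and Tspan33 (0.87 ± 0.16), which escort ADAM10, rose, and Rhbdf2 (-1.03 ± 0.16), which escorts ADAM17, fell. Of 12 AP-1 and ETS factors 7 rose and 2 fell (median 0.75), with Ets1 (2.22 ± 0.10), Ets2 (3.44 ± 0.19) and Etv4 (3.04 ± 0.31) up and Jund (-0.52 ± 0.07) down. Jund shares 52.6% of its exonic length with Gm11175 on the opposite strand, so its value is uncertain to that extent. Of 11 other matrix proteases 5 rose and 4 fell (median 0.07). They included the tolloid proteases Bmp1 (2.04 ± 0.14) and Tll1 (3.06 ± 0.18), Fap (5.55 ± 0.38) and Prss23 (1.44 ± 0.07), the last of which shares 22.9% of its exonic length with an antisense gene. All 10 fibroblast markers rose in the same comparison, and their part in these lists was not tested.

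Where Rb1 was lost, the further loss of Kdm5a went with lower values of Timp1, Timp2, Timp3, Mmp2, Mmp14 and several ADAM and ADAMTS genes. In DKO against Rb1 knockout 27 of the 55 genes fell, 7 rose and 21 did not pass, and 47.3% of all genes tested were called, 23.1% as higher and 24.2% as lower. The median was -0.49 over the 55 genes and -0.01 over all genes. The count of 7 was 2 without Rb1 knockout replicate 1, 2 without DKO replicate 1 and 2 without DKO replicate 2, and 3 where genes needed a mean of at least 50. This comparison and the one of Rb1 knockout with WT share the Rb1 knockout libraries, so values of each are given side by side and no overlap of their calls is read.

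Of the 4 TIMPs 3 fell and 1 rose. Timp1 stood at 600 and 546 in DKO, 3.55-fold lower than in Rb1 knockout (-1.82 ± 0.15, adjusted p = 9.11e-07), Timp2 at 3996 and 3946 (-0.84 ± 0.05, adjusted p = 3e-08) and Timp3 at 1926 and 2021 (-1.47 ± 0.09, adjusted p = 3.6e-08). The DKO values of Timp2 lay below all 6 other mixed libraries, whereas those of Timp1 and Timp3 lay above WT. Timp4 was the exception, with 34.2 and 19.8 in DKO (2.15 ± 0.53, adjusted p = 0.00505). Its mean was under 10 in every other mixed group, so it met the minimum through DKO, which favoured this rise.

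Adamts12 showed the largest fall among genes with a group mean of at least 100. It was at 213 and 220 in DKO, 8.84-fold lower than in Rb1 knockout (-3.14 ± 0.09, adjusted p = 7.92e-11) and below the 623 and 658 of WT. Adamts6, at 588 and 629, was 4.10-fold lower than in Rb1 knockout (-2.03 ± 0.09), Adam23, at 123 and 113, was 4.59-fold lower (-2.18 ± 0.26), and Mmp23, at 23.2 and 28.8, was 5.40-fold lower (-2.39 ± 0.35). For all 4 the Rb1 knockout libraries were the highest of the 8 mixed libraries. No overlap between DKO and Rb1 knockout was a condition for picking these 4. Mmp2 (2566 and 2392; -0.84 ± 0.11) and Mmp14 (1910 and 1794; -0.97 ± 0.08) fell but stayed above the WT libraries. Adam12 fell to 1116 and 1198 (-1.36 ± 0.07), below both WT libraries, and Adamts1 (791 and 772; -1.17 ± 0.08) and Adamts5 (4014 and 3912; -0.93 ± 0.05) were lower than in any other mixed group.

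Several genes that rose with Rb1 loss did not pass between DKO and Rb1 knockout. Mmp17 was 442 and 476 in DKO against 323 and 369 in Rb1 knockout (0.41 ± 0.31, adjusted p = 0.302), Adam10 was 4825 and 5011 (0.05 ± 0.05, adjusted p = 0.445) and Adam8, a protease of leukocytes and osteoclasts, was 92.1 and 113 against 87.8 and 118 (0.01 ± 0.28, adjusted p = 0.991). A p above the threshold does not show that these levels are equal. The gene with the largest rise was Adam2, the beta subunit of the sperm protein fertilin. It stood at 5.40 and 1.81 in Rb1 knockout and 74.7 and 70.7 in DKO (4.12 ± 0.57, adjusted p = 6.88e-05). Its mean was 4.39 in WT, 14.34 in Kdm5a knockout and 72.71 in DKO, so it met the minimum mean through the DKO libraries. The choice of genes thus favoured this rise. Mmp15 rose from 240 and 280 to 347 and 378 (0.48, adjusted p = 0.00651), and did not pass without Rb1 knockout replicate 1 (0.37, adjusted p = 0.0538) or DKO replicate 2 (0.42, adjusted p = 0.0765). Adamts9 rose from 358 and 337 to 463 and 495 (0.46, adjusted p = 0.034), and did not pass when any of the 4 libraries was left out, with adjusted p from 0.0778 to 0.193.

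In the lists of partner genes the same comparison gave 0 rises and 9 falls among 11 activators, 0 and 8 among 9 ADAMTS substrates, 1 and 5 among 8 epidermal growth factor genes, 3 and 2 among 7 ADAM partners, 1 and 8 among 12 AP-1 and ETS factors, and 1 and 7 among 11 other proteases. Among all genes tested 23.1% rose and 24.2% fell. Thbs1 was 660 and 686 in DKO (-4.45 ± 0.10), Vcan 1897 and 1915 (-2.07 ± 0.10) and Nrg1 326 and 343 (-2.54 ± 0.14). Erbb3, the receptor of Nrg1, went from 624 and 807 to 1915 and 2176 (1.52 ± 0.10). Fibroblast markers fell for 8 of 10 genes and all 10 myotube markers rose in this comparison.

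**Figure D2:**
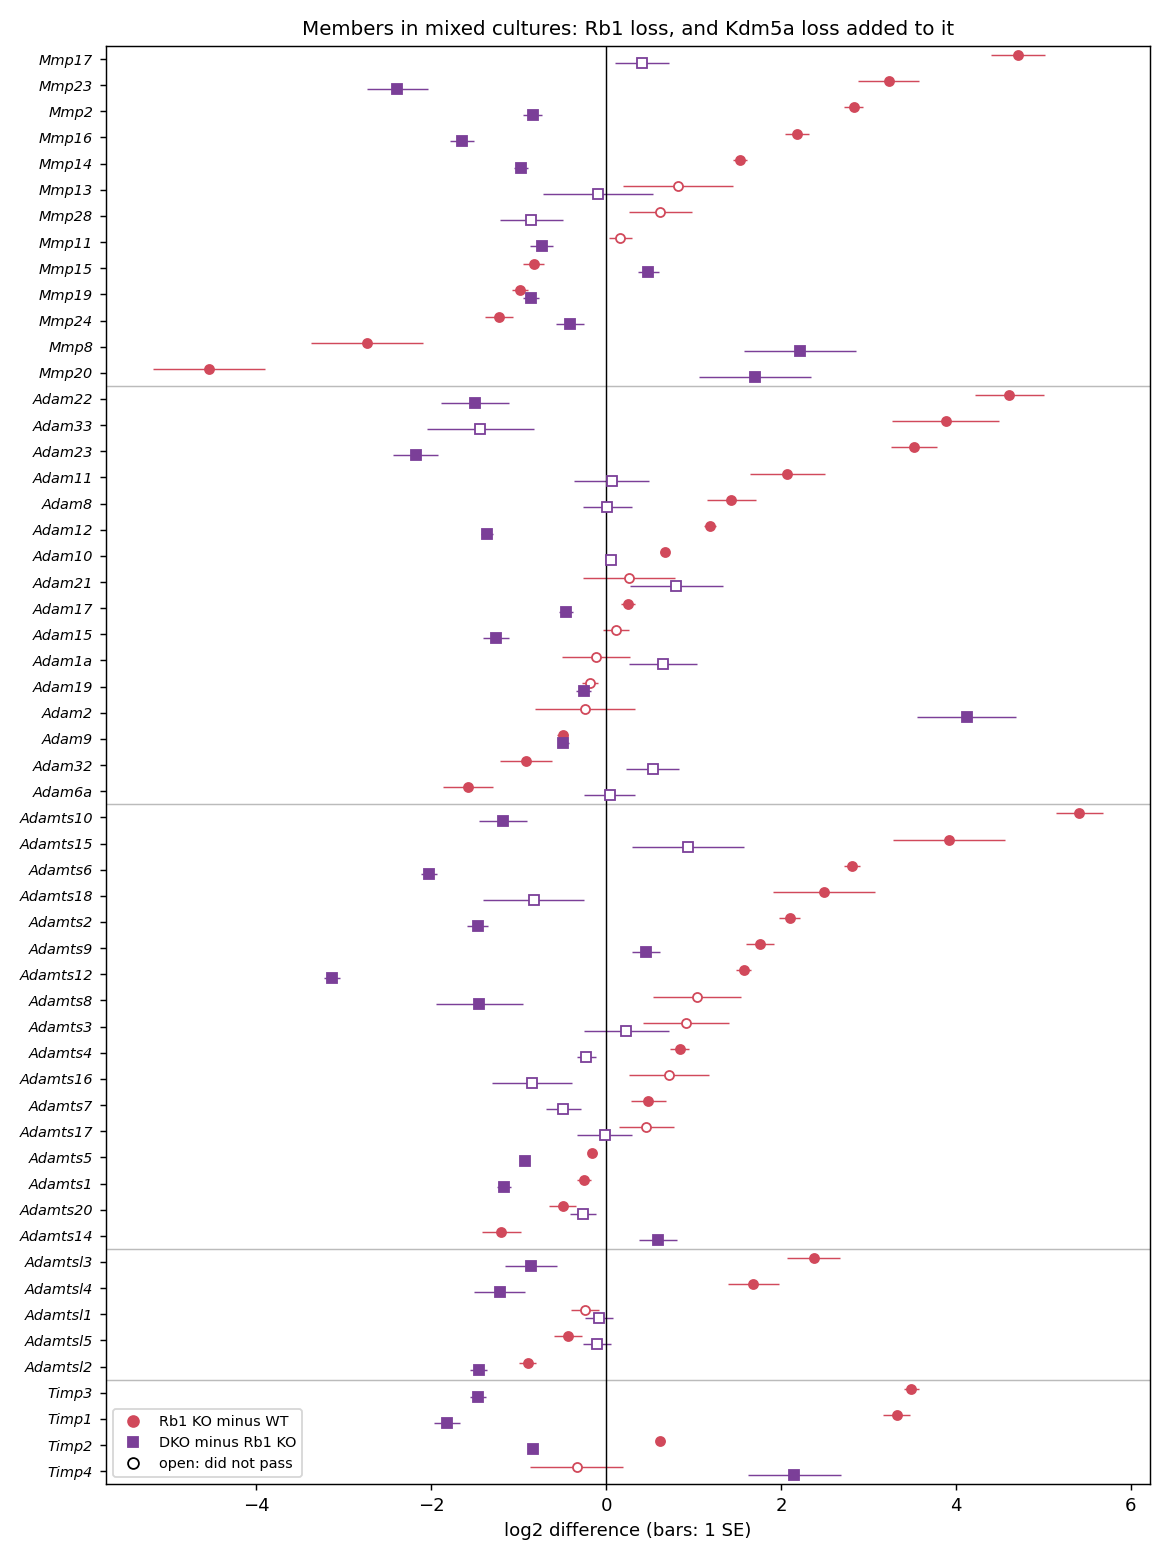
Log2 differences with 1 SE for the 55 genes in mixed cultures, grouped as MMPs, ADAMs, ADAMTS, ADAMTSL and TIMPs and sorted by the Rb1 knockout minus WT difference (circles), beside DKO minus Rb1 knockout (squares); filled symbols passed the test, and the 2 differences share the Rb1 knockout libraries. Of the circles 27 are filled to the right of 0 and 14 to the left, and of the squares 7 are filled to the right and 27 to the left.

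With Rb1 present, the loss of Kdm5a went with higher Timp1, Timp3 and Adamts4 and lower Adam19, Adamts5, Mmp2 and Mmp14. In Kdm5a knockout against WT 11 rose, 9 fell and 35 did not pass, and 27.2% of all genes were called, 13.4% as higher and 13.8% as lower. The medians were 0.10 over the 55 genes and 0.01 over all genes. Without Kdm5a knockout replicate 1 there were 7 rises and 8 falls.

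Timp1 had the largest rise, with 967 and 944 in Kdm5a knockout against 165 and 248 in WT (4.62-fold; 2.23 ± 0.15, adjusted p = 1.03e-06). The gene is X-linked and the groups differ in sex, and its part in the difference was not tested. Timp3 rose from 444 and 535 to 1000 and 1007 (2.05-fold; 1.04 ± 0.09, adjusted p = 4.7e-06) and the aggrecanase Adamts4 from 322 and 399 to 903 and 874 (2.47-fold; 1.31 ± 0.11, adjusted p = 6.58e-06). No overlap between the groups was a condition for being picked as a large rise. Adamts17 was 184 and 101 against 77.8 and 52.2, and its rise (1.09, adjusted p = 0.0244) did not pass without WT replicate 2 (0.80, adjusted p = 0.125) or Kdm5a knockout replicate 1 (0.65, adjusted p = 0.23). Mmp19 (1.68-fold), Adamtsl2 (1.39-fold), Adam9 (1.31-fold) and Adam10 (1.28-fold) rose by less.

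Adam23 fell in Kdm5a knockout, from 40.7 and 52.2 to 13.6 and 20.3 (-1.42 ± 0.26, adjusted p = 0.00154). Other falls took in Adam19, from 2885 and 3617 to 1647 and 1760 (-0.92 ± 0.09, adjusted p = 1.28e-05), and Adamts5, from 8044 and 8845 to 5156 and 5191 (-0.71 ± 0.05, adjusted p = 2.82e-06). Adamts20, a versican protease of the skin and hair follicle, went from 883 and 1011 to 397 and 601 (-0.95 ± 0.15, adjusted p = 0.000698), with a wide gap between the 2 knockout libraries. Mmp2 fell to 342 and 403 (-0.74 ± 0.11) and Mmp14 to 917 and 788 (-0.55 ± 0.08), so the gelatinase and its activator were lower here and higher in Rb1 knockout. Myotube markers summed to 359410 to 377451 in Kdm5a knockout, against 368806 to 402588 in WT, and 6 of 10 fell while 1 rose. Fibroblast markers summed to 8765 to 9072, with 4 of 10 higher and 4 lower. Smooth muscle markers summed to 28714 to 28851, against 39657 to 40091 in WT, and 3 of 5 fell while 1 rose. Proliferation markers summed to 909 to 942, against 529 to 542, and 3 of 5 rose while 1 fell. The part of these markers in the differences was not tested.

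Whether Kdm5a loss acted alike with and without Rb1 was tested as an interaction, (DKO minus Rb1 knockout) minus (Kdm5a knockout minus WT). It was below 0 for 26 of the 55 genes and above 0 for 5, and 38.3% of all genes were called, 18.8% above and 19.5% below. The median was -0.69 over the 55 genes and -0.02 over all. The count of 5 ranged from 2 to 4 with a library left out (2 without Kdm5a knockout replicate 1, DKO replicate 1 or DKO replicate 2, and 3 without Kdm5a knockout replicate 2). Timp1 had the largest value (-4.06 ± 0.22, adjusted p = 3.36e-08), since Kdm5a loss went with a rise of 2.23 where Rb1 was present and with a fall of 1.82 where it was absent. Timp3 (1.04 with Rb1 and -1.47 without; interaction -2.52 ± 0.12), Mmp19 (0.75 and -0.86; -1.61 ± 0.13) and Adamtsl2 (0.47 and -1.46; -1.93 ± 0.13) also changed sign. Adamts12 had almost no difference with Rb1 present (-0.07, adjusted p = 0.604) and an interaction of -3.06 ± 0.13. Mmp15 changed sign the other way (-0.68 with Rb1 and 0.48 without; interaction 1.16 ± 0.18, adjusted p = 0.000224). Adam19 fell with Rb1 present by 0.92 and had an interaction of 0.66 ± 0.12 (adjusted p = 0.00112). The interaction of Mmp2 was -0.09 ± 0.16 and did not pass (adjusted p = 0.691), its differences being -0.74 with Rb1 and -0.84 without.

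**Figure D3:**
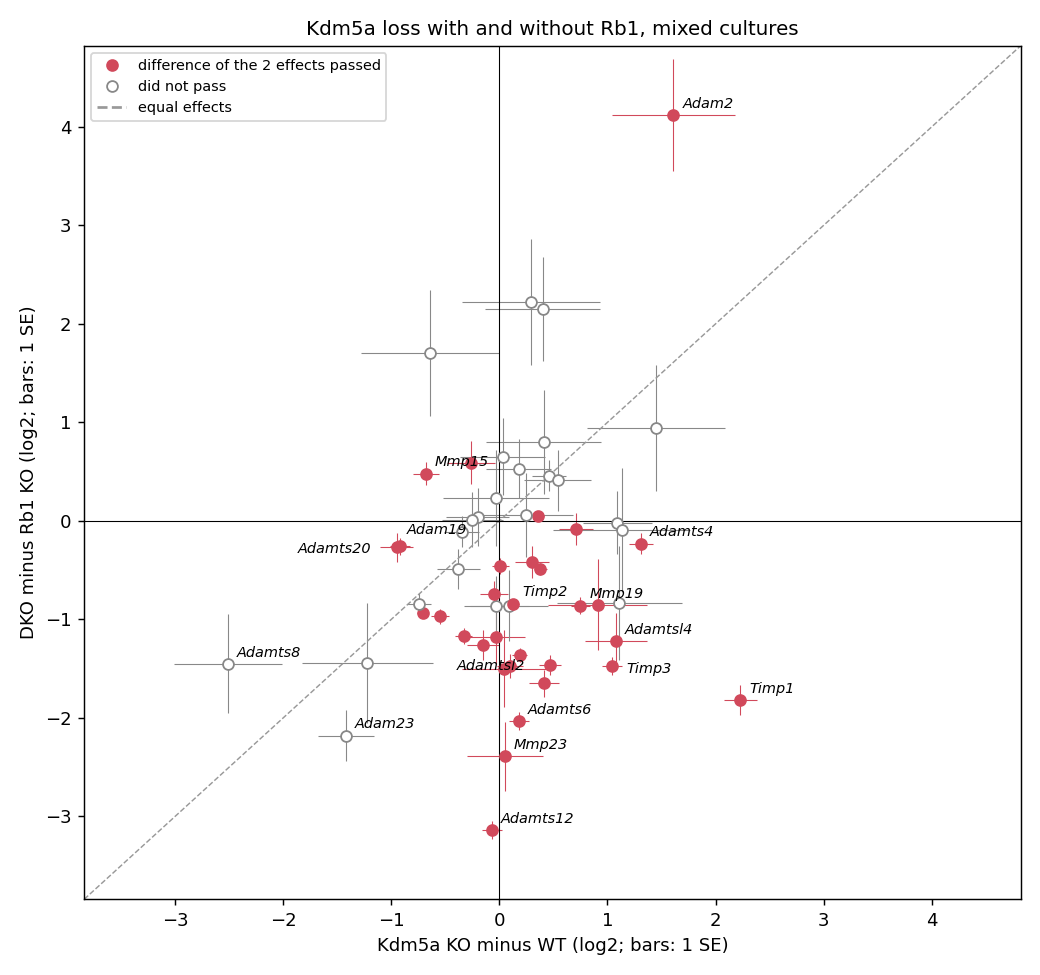
Log2 difference of Kdm5a knockout minus WT (horizontal) against DKO minus Rb1 knockout (vertical) for the 55 genes in mixed cultures, with bars of 1 SE; filled points passed the interaction test, and the dashed line marks equal differences. Timp1 lies furthest to the lower right, at 2.23 and -1.82, Adamts12 lowest at -0.07 and -3.14, and Mmp15 in the upper left at -0.68 and 0.48.

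Against WT, the DKO mixed cultures had 23 genes higher, 19 lower and 13 that did not pass, with 67.9% of all genes called, 34.0% as higher and 33.9% as lower. Where genes needed a mean of at least 50, 16 were higher and 18 lower of 40 tested. Among all genes called, 46.3% were higher in that setting and 50.1% in the main one. The median was 0.47 over the 55 genes and within rounding of 0 over all genes. Mmp17 was 36.5-fold higher (5.12 ± 0.31, adjusted p = 1.35e-08), Adamts10, at 291 and 263, 19.8-fold higher (4.23 ± 0.27), Adamts9, which was 117 and 88.5 in WT, 4.66-fold (2.22 ± 0.16), Timp3 4.03-fold (2.01 ± 0.09) and Mmp2 3.96-fold (1.99 ± 0.11). Adamtsl2, a gene of microfibril and transforming growth factor beta biology, went from 835 and 886 to 170 and 164, 5.14-fold lower (-2.35 ± 0.10, adjusted p = 4.09e-10). Mmp19, at 229 and 234, was 3.62-fold lower, Mmp24, at 94.7 and 109, 3.16-fold lower, and Adamts12 2.96-fold lower. Adam9 was at 1820 and 1872, 2.00-fold lower. Adam12, at 1116 and 1198 against 1330 and 1268, was near the threshold (-0.17, adjusted p = 0.0393) and did not pass without WT replicate 1 (-0.13, adjusted p = 0.153) or DKO replicate 1 (-0.12, adjusted p = 0.264), nor under TMM scaling (-0.14) or by either count test (-0.14 by edgeR and -0.15 by DESeq2).

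With Kdm5a absent in both groups, the loss of Rb1 (DKO against Kdm5a knockout) gave 22 genes higher, 17 lower and 16 that did not pass, with 67.2% of all genes called, 33.7% as higher and 33.4% as lower. Where genes needed a mean of at least 50, 15 were higher and 16 lower of 40 tested. Among all genes called, 47.1% were higher in that setting and 50.2% in the main one. The medians were 0.18 and, over all genes, 0.01. The rises were led by Mmp17, with 13.6 and 24.5 in Kdm5a knockout (24.1-fold), Adamts10, with 16.3 and 11.2 (20.2-fold), Adam23, with 13.6 and 20.3 (6.98-fold), and Mmp2, with 342 and 403 (6.66-fold). The falls were led by Adamtsl2, with 1165 and 1224 in Kdm5a knockout (7.13-fold), Mmp19, with 1379 and 1449 (6.10-fold), Mmp24, with 389.8 and 402 (3.89-fold), and Adamts12, with 599.6 and 618 (2.82-fold). No overlap between the 2 groups was a condition for picking these 8. Timp1, which rose in Rb1 knockout against WT, fell here by 0.74 ± 0.15 (adjusted p = 0.000868), and Adamts4 by 0.70 ± 0.11. Xist was read and Ddx3y was not in all 4 libraries of this comparison.

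In purified myotubes Adam19 and 6 of the 7 secreted proteoglycanases fell in DKO against WT, and Mmp17 and the 4 TIMPs rose. The seventh, Adamts9, was 331 and 342 in WT and 315 and 296 in DKO and did not pass. Of the 6, only Adamts5 passed with each library left out. Adamts20 (adjusted p = 0.00924) had 0.165 and 0.132 without WT purified replicate 1 or 2, Adamts4 (adjusted p = 0.0249) had 0.28 and 0.298, and Adamts15 (adjusted p = 0.00989) had 0.0518 without WT purified replicate 2. Of 50 genes tested 15 rose, 18 fell and 17 did not pass, and 39.6% of all 16670 genes were called, 21.0% as higher and 18.6% as lower. The medians were -0.11 over the genes tested and -0.05 over all. The other 5 genes had a mean under 10 in these libraries. Only 9 of the 33 calls passed with each library left out in turn. Without WT purified replicate 1 there were 5 rises and 5 falls, and without WT purified replicate 2 there were 6 and 4. Proliferation markers summed to 578 to 629 in WT and 21724 to 32019 in DKO, fibroblast markers to 15057 to 18558 and 24494 to 33178, and myotube markers to 489472 to 519378 and 171601 to 182940, although 4 of 10 myotube markers fell and 1 rose. Smooth muscle markers summed to 105506 to 112970 in WT and 18655 to 30134 in DKO, while 3 of 5 rose and 1 fell. Leukocyte markers summed to 1873 to 2006 and 667 to 1294 (2 of 3 tested fell and 1 rose), and cartilage markers to 495 to 527 and 805 to 1568 (1 of 4 tested rose and 1 fell). Endothelial markers summed to 856 to 912 and 1042 to 1286 (3 of 5 rose). The WT myotube sum was higher than in WT mixed cultures (368806 to 402588). In mixed cultures the fibroblast sum was 10469 to 10984 in WT and 14119 to 14929 in DKO. The leukocyte sum there was 753 to 846 and 322 to 336. Both were higher in purified libraries, as was the WT smooth muscle sum (39657 to 40091 in mixed). Lum, Adgre1 and Lyz2 had no read in WT purified libraries, and the DKO proliferation sum was lower (33068 to 33288 in mixed). Purified libraries are not shown to be free of other cells. The part of the markers in these results was not tested.

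The 9 were Mmp17, Mmp28, Adam19, Adam33, Adamts5, Adamts10, Adamts12, Adamtsl3 and Timp4. Mmp17 stood at 13.0 and 17.4 in WT myotubes and 995 and 1377 in DKO myotubes, a 78.0-fold difference (6.19 ± 0.31, adjusted p = 0.000909). Adamts5 went from 13784 and 13718 to 1919 and 1362, 8.38-fold lower (-3.09 ± 0.24, adjusted p = 0.00158), and Adam19, the leading gene per kilobase in WT myotubes, from 15883 and 15271 to 2365 and 3083, 5.72-fold lower (-2.53 ± 0.22, adjusted p = 0.00193). The values of Adam19 in DKO myotubes lay within the range of the mixed cultures. Adam19 shares 8.25% of its exonic length with Gm16033 and 6.75% with Gm16034, both on the opposite strand. Adamts12 was 260 and 248 against 35.8 and 22.0 (8.81-fold lower), Mmp28, which shares 12.03% of its exonic length with a gene on the opposite strand, 91.2 and 101 against 8.13 and 13.6 (8.82-fold lower) and Adamts10 57.7 and 70.8 against 324 and 369 (5.39-fold higher). Adam33 had no read in either WT library and 29 and 42 reads in DKO, at least 20.2-fold higher with a floor of 3 reads over the group. Adamtsl3 (3.72 and 9.94 against 106 and 80.6) and Timp4 (1.86 and 1.24 against 39.03 and 29.3, the WT values being 1 read each) rose from very low levels.

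All 4 TIMPs passed as higher in DKO myotubes, and for Timp1, Timp2 and Timp3 the call was lost without either WT library. Timp1 was 240 and 311 in WT and 696 and 1597 in DKO (1.95 ± 0.44, adjusted p = 0.0224; 1.76, adjusted p = 0.135, and 2.13, adjusted p = 0.0823, without WT purified replicate 1 or 2). Timp3 was 335 and 296 against 920 and 1396 (1.85 ± 0.27, adjusted p = 0.00708; adjusted p = 0.0646 and 0.0782 without these libraries). Timp2 was 3712 and 3823 against 6059 and 9067 (0.98 ± 0.26, adjusted p = 0.0346; adjusted p = 0.306 and 0.282). In all 3 the lower DKO library was above both WT libraries. The groups were apart in this way for 41 of the 50 genes tested, so it adds no support to the 3 calls. Mmp2 (718 and 770 against 1564 and 2013; adjusted p = 0.0106) lost its call in the same way (adjusted p = 0.165 and 0.135), as did Mmp14 (4837 and 5181 against 1951 and 2967; adjusted p = 0.0293, then 0.226 and 0.259), Adamts1 (2789 and 2871 against 818 and 686; adjusted p = 0.00273, then 0.0507 and 0.0507) and Adamts8 (154 and 152 against 24.4 and 31.4; adjusted p = 0.00505, then 0.0641 and 0.0578). Adamtsl4 (33.5 and 13.7 against 73.2 and 137; adjusted p = 0.0359) lost its call without either WT library or DKO purified replicate 2 (adjusted p from 0.0557 to 0.191). Mmp15 (3284 and 2959 against 868 and 2507), Adam10 (2579 and 2595 against 2721 and 1896) and Adam17 (1127 and 1046 against 1251 and 1074) did not pass. The difference of Mmp15 was -0.31 without DKO purified replicate 1 and -1.84 without replicate 2, and that of Adam10 was -0.45 without replicate 1. With 1 DKO library left, the spread came from the WT libraries alone, so no call is read from these fits.

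The DKO difference was set against itself in the 2 kinds of library, purified minus mixed. Of 54 genes tested 7 were above 0 and 17 below, and 24.8% of all 17273 genes were called, 11.6% above and 13.2% below. The medians were -0.22 and, over all genes, -0.06. This fit gave each gene 1 spread shared by all groups. The DKO purified libraries differed from each other by a median of 0.479, against 0.088 to 0.149 in the other groups. The standard errors and adjusted p-values of these differences may therefore be too small. Adam19 had a DKO difference of -0.45 in mixed cultures and -2.53 in purified myotubes (-2.08 ± 0.20, adjusted p = 0.000115), and Adamts5 -1.09 and -3.09 (-2.0 ± 0.20, adjusted p = 0.000138). Mmp14 was higher in DKO mixed cultures (0.57) and lower in DKO myotubes (-1.06; -1.62 ± 0.25, adjusted p = 0.0013), Mmp16 likewise (0.53 and -1.48; -2.0 ± 0.28) and Adamts4 too (0.61 and -0.85; -1.46 ± 0.20). Adam12 and Timp2 went the opposite way, with -0.17 and 1.01 for Adam12 (1.18 ± 0.17, adjusted p = 0.000872) and -0.22 and 0.98 for Timp2 (1.2 ± 0.22, adjusted p = 0.00361). Adamts9 had 2.22 in mixed cultures and -0.14 in myotubes (-2.36 ± 0.24, adjusted p = 0.00016). For Mmp17 the 2 differences were 5.12 and 6.19 and their difference did not pass (1.07, adjusted p = 0.123), nor did those of Timp1 (0.45, adjusted p = 0.513) and Timp3 (-0.17, adjusted p = 0.666). The value was 1.05 for Timp1 without DKO purified replicate 1 and -0.47 for Timp3 without DKO purified replicate 2. Those fits lack the spread between the DKO purified libraries, so no call is read from them. Purification, recovery in conditioned medium, oligo(dT) selection, read length and sequencing instrument changed together between the 2 kinds of library and cannot be told apart.

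**Figure D4:**
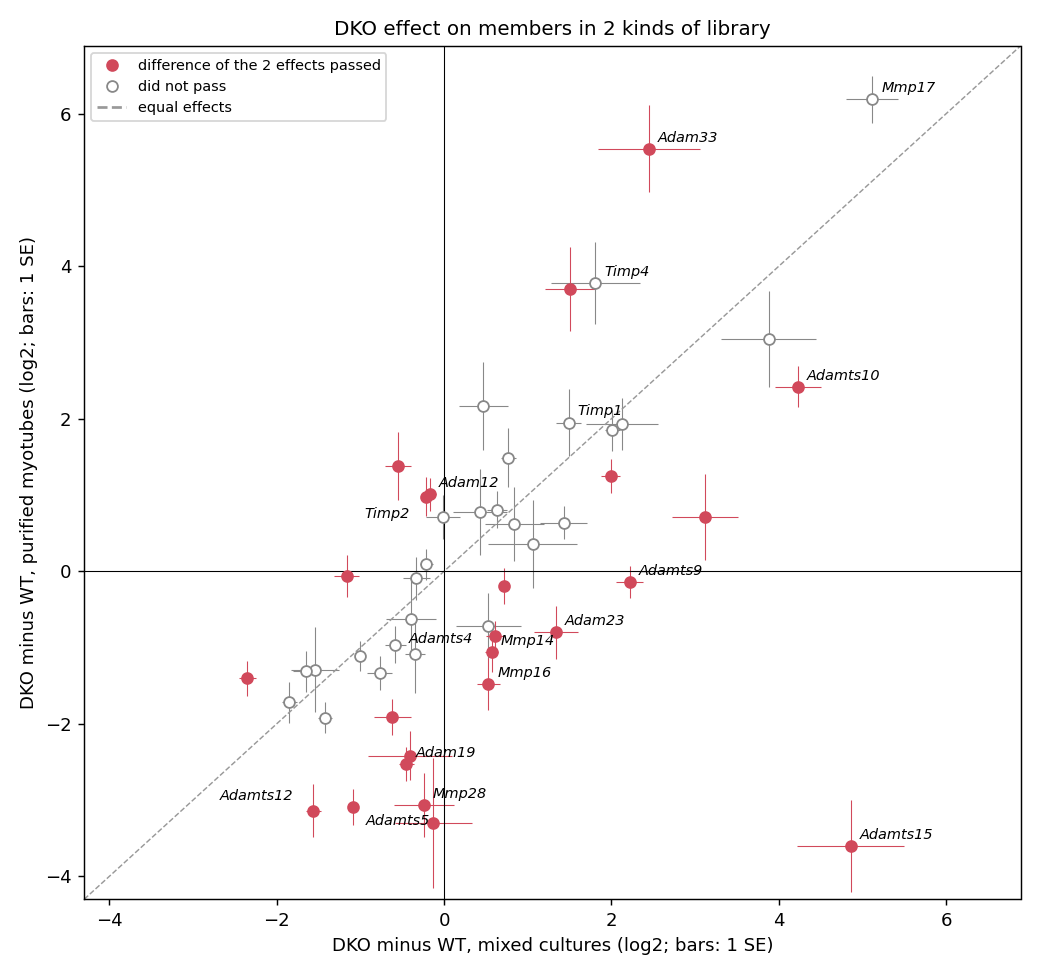
Log2 difference of DKO minus WT in mixed cultures (horizontal) against purified myotubes (vertical) for the 50 genes tested in both, with bars of 1 SE; filled points passed the test of the difference between the 2, and the dashed line marks equal differences. Mmp17 lies in the upper right at 5.12 and 6.19, Adam19 at -0.45 and -2.53 and Adamts5 at -1.09 and -3.09 lie well below the line, and Adam12 and Timp2 lie left of 0 and above it.

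The remaining genes gave smaller or thinner signals. Adam1a, Adam21, Adamts16, Mmp13 and Mmp28 passed in none of the 2-group comparisons of mixed cultures. Adam1a shares 63.7% of its exonic length with Gm42878, so little can be read from it. Of the other genes, Adam15 shares 20.55% with 4731419I09Rik and Adamts8 10.6% with Gm29724, both on the opposite strand. Not every shared stretch is listed here. Among the 29 genes under the minimum were the gelatinase Mmp9, the stromelysin Mmp3 and the macrophage elastase Mmp12. Mmp9 had a mean of 7.91 and lay just outside, with 2.39 and 3.20 in WT, 25.8 and 20.5 in DKO, 44.7 and 50.9 in WT myotubes and 34.2 and 79.5 in DKO myotubes. Mmp7 (8.54) and Mmp21 (9.12) were also just outside, and Adam21 (10.7), Timp4 (12.04) and Mmp13 (13.5) just inside. Mmp3 did not exceed 21.7 in any library and Mmp12 did not exceed 25.7. The interstitial collagenase genes Mmp1a and Mmp1b had no read in any library, and neither did 6 testis-type ADAM genes (Adam6b, Adam24, Adam25, Adam26a, Adam26b and Adam39).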

How the data were processed

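RNA was measured in 12 libraries of 6 groups with n = 2 each. TopHat 1.2.0, DESeq and the mouse build mm9 are named, without their roles, per the submitters' processing notes. The version of DESeq, the read counter, the annotation and the strand setting are not given in the sources used here. The authors deposited 1 table of normalised read counts per gene identifier (a signal, in units of reads divided by a factor per library). Of these values 100% were within 0.01 of a whole number of reads after division by the value of 1 read in that library, and the recovered totals were 8688604 to 41309134 reads.

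Symbols were matched to 30983 of 36229 identifiers (85.5%). limma 3.58.1 in R 4.3.3, with a trend in the variance, was fitted to log2(value + 1) over genes with a mean of at least 10 in the libraries fitted: the 8 mixed, the 4 purified, or all 12. Tests were two-sided, p-values were adjusted by Benjamini-Hochberg over all genes of a fit, and the threshold was 0.05. A fold is a ratio of group means of normalised values, and a log2 difference understates the change of low genes. On recovered reads, edgeR 4.0.16 (quasi-likelihood) called 6360 genes higher and 5792 lower in Rb1 knockout against WT, and DESeq2 1.42.0 called 5836 and 5787. The scripts were tested on simulated data. Tables and plots used Python 3.11.15, pandas 2.3.3 and matplotlib 3.10.9.

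Any of the 55 genes could be named. Values by library are given for a set of well-known members and, in each comparison of 2 groups, for the 4 largest rises and 4 largest falls among genes that passed, did not overlap between groups and had a group mean of at least 100. Up to 4 genes of each partner list, with the smallest p in Rb1 knockout against WT, were named, and 1 of these is not reported here. The members and lists were chosen with earlier results of these data known. Alternatives were 2 other pseudocounts (0.5 and 5), no filter, a minimum mean of 50, TMM scaling, both count tests, a replicate block, a fit of the compared groups alone, and leaving out each library.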

Additional observations from a re-analysis of the deposited data

Results flagged for a closer look

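The effect of Kdm5a loss differed between cultures without and with Rb1, by limma's test of the interaction, for 31 of the 55 genes. Among all genes tested 38.3% were called. The values are the log2 difference without Rb1 minus that with Rb1. Among the inhibitors they were -4.06 for Timp1, -2.52 for Timp3 and -0.97 for Timp2. Among the MMPs they were -2.44 for Mmp23, -2.06 for Mmp16, -1.61 for Mmp19, -0.72 for Mmp24, -0.69 for Mmp11, -0.41 for Mmp14 and 1.16 for Mmp15. Among the ADAMs they were -1.55 for Adam12, -1.54 for Adam22, -1.11 for Adam15, -0.88 for Adam9, -0.47 for Adam17, -0.31 for Adam10, 0.66 for Adam19 and 2.51 for Adam2. Among the ADAMTS genes they were -3.06 for Adamts12, -2.22 for Adamts6, -1.76 for Adamts16, -1.57 for Adamts2, -1.53 for Adamts4, -1.15 for Adamts10, -0.83 for Adamts1, -0.22 for Adamts5, 0.68 for Adamts20 and 0.85 for Adamts14. The ADAMTS-like genes gave -2.29 for Adamtsl4, -1.93 for Adamtsl2 and -0.79 for Adamtsl1. Adam2 met the minimum mean through the DKO libraries, so the choice of genes favoured its value. Of the 31, 21 passed with each library left out. The highest adjusted p with a library left out was 0.102 for Adam2, 0.142 for Adam22, 0.131 for Adamts10, 0.147 for Adamts14, 0.167 for Adamts16, 0.0911 for Adamts20, 0.133 for Adamts5, 0.0678 for Adamtsl1, 0.0746 for Mmp14 and 0.101 for Mmp24.

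The DKO effect differed between purified and mixed libraries, by limma's test of that difference, for 24 of 54 genes. Among all genes tested 24.8% were called. The fit shared 1 spread over all groups although the DKO purified libraries varied most, so its p-values may be too small. The values are the log2 difference in purified minus that in mixed libraries. The lowest was -8.46 for the proteoglycanase Adamts15, which had 0 and 1 reads in WT mixed, 80 and 100 in DKO mixed, 18 and 29 in WT purified and 2 and 1 in DKO purified libraries, so that its size depends on the pseudocount. Other ADAMTS genes had -3.16 (Adamts16), -2.36 (Adamts9), -2.01 (Adamts8), -2.0 (Adamts5), -1.81 (Adamts10), -1.57 (Adamts12), -1.46 (Adamts4) and -1.29 (Adamts14). The ADAMs had -2.41 (Adam22), -2.14 (Adam23), -2.08 (Adam19), -0.91 (Adam10), 1.10 (Adam15), 1.18 (Adam12) and 3.09 (Adam33). The MMPs had -2.83 (Mmp28), -2.0 (Mmp16), -1.62 (Mmp14) and -0.74 (Mmp2). Timp2 had 1.2, and the ADAMTS-like genes 0.96 (Adamtsl2), 1.92 (Adamtsl5) and 2.19 (Adamtsl3). Of the 24, 16 passed with each library left out. The highest adjusted p with a library left out was 0.11 for Adam15, 0.0772 for Adam22, 0.0568 for Adam33, 0.146 for Adamts16, 0.106 for Adamts8, 0.102 for Adamtsl3, 0.0503 for Adamtsl5 and 0.14 for Mmp2.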

How the results depend on the processing

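No called difference of a named gene changed sign under the alternatives run, but the balance of rises and falls turned in several. It went from 23 and 19 to 16 and 18 in DKO against WT and from 22 and 17 to 15 and 16 in DKO against Kdm5a knockout with a minimum mean of 50, from 11 and 9 to 7 and 8 in Kdm5a knockout against WT without Kdm5a knockout replicate 1, and from 15 and 18 to 6 and 4 in purified myotubes without WT purified replicate 2 (5 and 5 without replicate 1). Over all genes called, the share that rose moved in the same direction in each of these settings. With a minimum mean of 50 that share went from 50.1% to 46.3% in DKO against WT. In DKO against Kdm5a knockout it went from 50.2% to 47.1%. The turns are thus not particular to the 55 genes. In DKO against Rb1 knockout 3 members rose with a minimum mean of 50, where 40 were tested, against 7. In the interaction 2 were above 0 with no filter against 5. With 1 library left out, genes called in Kdm5a knockout against WT ranged from 3057 to 4251 (4685 with all) and members that rose from 7 to 13. Members that rose ranged from 2 to 5 in DKO against Rb1 knockout, and those above 0 in the interaction from 2 to 4. For DKO against WT in purified myotubes, genes called ranged from 1983 to 11574 (6598 with all), rises from 5 to 18 and falls from 4 to 22. The low values came without a WT purified library and the high ones without a DKO purified library. For purified minus mixed, genes called ranged from 2471 to 8989 (4292 with all) and members above 0 from 4 to 11. The cause was not tested. Where a group kept 1 library, that library was assumed to vary like the others of the fit.

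Same-numbered libraries did not deviate together (r from -0.069 to 0.103 over 13742 genes), so the numbers were not taken as pairs. With the replicate block, members that rose and fell numbered 10 and 9 in Kdm5a knockout against WT, 27 and 14 in Rb1 knockout against WT, 22 and 19 in DKO against WT, 5 and 26 in DKO against Rb1 knockout, 21 and 17 in DKO against Kdm5a knockout, 4 and 24 in the interaction, 15 and 19 in purified myotubes, and 7 and 16 in purified minus mixed. Depth limits the low genes: 1 read was worth 0.395 to 1.86 normalised reads.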
